A study of Mus musculus with 48 samples.

Results

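Epidermis of mice 47 weeks old was compared between the late night, Zeitgeber time (ZT) 20, and the light phase, ZT8, in libraries labelled ColXIV KO. Zeitgeber time counts hours from lights on. The comparison used 8 of the 48 bulk RNA-seq libraries of the series, 4 at each time, chosen by their labels for genotype and time. The other libraries were labelled ColXIV WT, or KO at ZT0, ZT4, ZT12 or ZT16, again with 4 in each group. All came from epidermal cell suspensions, for which poly(A) RNA was sequenced. The labels give no promoter, clone or allele for the KO.

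The gene of the label went against it. Col14a1, which encodes collagen XIV, was at 45.3 to 70.9 CPM (counts scaled to library size by TMM) in the 8 libraries labelled KO and at 0.261 to 1.64 CPM in the 8 libraries labelled WT at the same times. The groups are therefore called by their labels throughout, and no direction between genotypes is drawn. Col14a1 itself gave a log2 fold change of 0.25 ± 0.35 (SE) from ZT8 to ZT20, which did not pass the test. Library totals were 38.7 to 42.1 M counts. The keratinocyte markers Krt5 (9391 to 12578 CPM) and Krt10 (13010 to 16916 CPM) were abundant in all 8. Xist, the RNA of the inactive X chromosome, was high in replicates 1 and 3 at ZT8 and in replicate 2 at ZT20, at no less than 1449 CPM, and did not exceed 3.43 CPM in the remaining 5. The time groups thus held 2 and 1 libraries with Xist.

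The mammalian clock is a loop of transcription factors. BMAL1 (gene Arntl) and its partner CLOCK or NPAS2 bind E-box sequences and switch on the PER and CRY repressors, which then shut them off. A second loop joins it, in which ROR receptors activate and REV-ERB receptors repress Arntl through ROR elements, and a further loop works through D-boxes, bound by DBP, TEF and HLF and by their competitor NFIL3. In epidermis this clock is known for timing cell division, differentiation and metabolism over the day.

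The promoter windows of 5 called clock genes are shown as examples of the letters that these loops are known to read. Tef and Bhlhe41, also called, hold an E-box too and are not printed. The windows are from RefSeq (GRCm38.p6) and run 5′ to 3′ from 250 bases before to 50 bases after a start of transcription. Capitals mark the match. Both strands were searched for the E-box CACGTG, the D-box TTATGTAA or TTACGTAA, and the ROR element TAGGTCA or TGGGTCA.

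Ciart, chr3:95882179-95882478, minus strand: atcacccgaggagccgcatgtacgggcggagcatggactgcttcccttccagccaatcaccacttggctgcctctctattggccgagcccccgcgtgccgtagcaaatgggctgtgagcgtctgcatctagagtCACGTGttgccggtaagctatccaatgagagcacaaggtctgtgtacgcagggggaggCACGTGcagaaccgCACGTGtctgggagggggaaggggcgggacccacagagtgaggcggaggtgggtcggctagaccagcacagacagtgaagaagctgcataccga

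Cry1, chr10:85185005-85185304, minus strand: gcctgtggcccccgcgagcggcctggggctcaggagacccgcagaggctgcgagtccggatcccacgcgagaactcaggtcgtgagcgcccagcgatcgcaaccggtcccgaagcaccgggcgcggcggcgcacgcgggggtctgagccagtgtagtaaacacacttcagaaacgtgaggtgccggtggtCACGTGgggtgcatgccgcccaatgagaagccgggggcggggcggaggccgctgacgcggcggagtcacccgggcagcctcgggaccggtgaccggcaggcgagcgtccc

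Per3, chr4:151044616-151044915, minus strand: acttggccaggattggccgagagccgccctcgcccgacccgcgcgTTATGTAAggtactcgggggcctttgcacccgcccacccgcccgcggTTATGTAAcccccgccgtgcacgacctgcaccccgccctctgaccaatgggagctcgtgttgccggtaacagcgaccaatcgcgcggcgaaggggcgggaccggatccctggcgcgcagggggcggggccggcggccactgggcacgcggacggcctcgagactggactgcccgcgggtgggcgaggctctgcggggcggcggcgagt

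Nfil3, chr13:52980990-52981289, minus strand: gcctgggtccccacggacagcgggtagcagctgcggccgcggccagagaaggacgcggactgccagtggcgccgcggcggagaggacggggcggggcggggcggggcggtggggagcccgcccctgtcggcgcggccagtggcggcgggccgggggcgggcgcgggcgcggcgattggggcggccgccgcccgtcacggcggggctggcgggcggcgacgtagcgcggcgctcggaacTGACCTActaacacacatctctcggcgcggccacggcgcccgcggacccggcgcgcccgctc

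Arntl, chr7:113207261-113207560, plus strand: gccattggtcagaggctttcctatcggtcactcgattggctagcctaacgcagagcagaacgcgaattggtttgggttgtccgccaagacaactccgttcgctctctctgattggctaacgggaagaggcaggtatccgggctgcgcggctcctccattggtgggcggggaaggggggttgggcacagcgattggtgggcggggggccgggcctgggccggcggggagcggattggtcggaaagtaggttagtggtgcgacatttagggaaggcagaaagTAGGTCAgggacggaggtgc

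Ciart, a repressor of CLOCK and BMAL1, held 3 E-boxes and Cry1 held 1. Per3 held 2 D-boxes. Nfil3 held 1 ROR element, on the opposite strand, and Arntl held 1 after its start. Among all 32851 windows of this length, 7.15% held the E-box, 1.06% the D-box and 6.45% the ROR element. Counted per gene over all its windows, the shares were 11.0%, 0.865% and 6.44% of the 12249 tested genes with a window. A window was given for 17 of the 20 clock genes. Of these 17 genes, 5 held an E-box, 1 a D-box and 2 a ROR element. A match describes the letters only.

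Of 17068 genes tested, 570 differed between the times by edgeR's quasi-likelihood test at a Benjamini-Hochberg adjusted p under 0.05, which is 3.34% of all tested. At ZT20, 315 were higher (1.85% of all tested) and 255 lower (1.49%). The median log2 fold change of all genes was -0.0037 (ZT20 over ZT8, as for all fold changes below). Most called changes were small, with 393 of 570 under 0.5 on the log2 scale, while 15 rose and 41 fell by at least 1. Values of the 2 times did not overlap for 518 of the called genes. These genes were called on the same values, and the share without overlap among all tested genes was not counted. In the plot of all tested genes, the clock genes Cry1, Nr1d1 and Dbp lie outside the band of the others. Leaving out ZT20 replicate 3 lowered the count to 278, and every other library but ZT8 replicate 3 and ZT20 replicate 2 lowered it by over 1.5 times too, to between 317 and 371. No called gene changed sign in any of these 8 fits, and 198 were called in all of them.

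**Figure D1:**
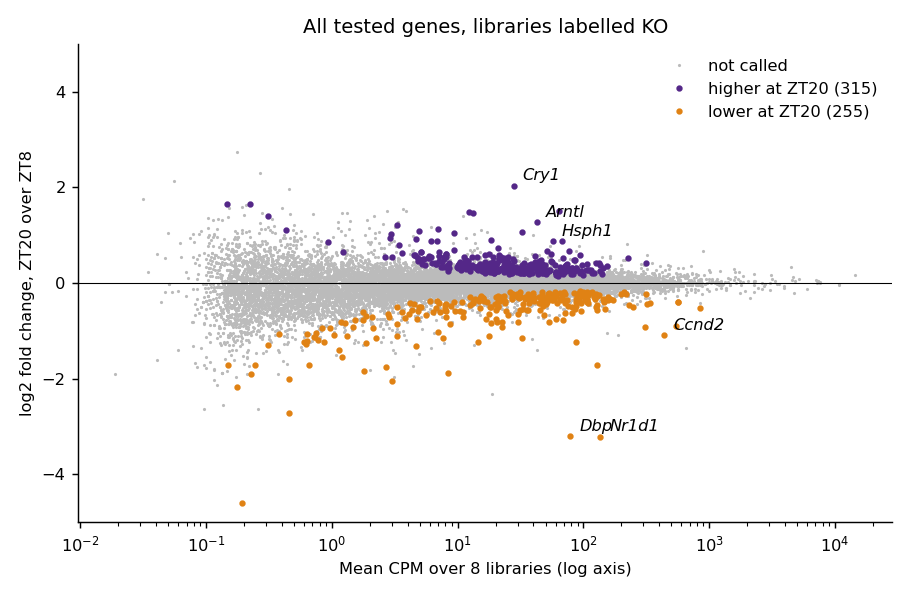
Mean CPM over the 8 libraries (log axis) against the log2 fold change of ZT20 over ZT8 for each tested gene, with 315 called higher and 255 called lower; 2 genes that were not called lie beyond the axis limit of 5. Cry1 is the highest of the named genes and Nr1d1 and Dbp are the lowest.

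Clock genes led the named changes in both directions. Of the 20 clock genes on 5 lists, 19 were measured and 15 were called, against 3.34% of all genes called. Values at the 2 times did not overlap for any of these 15, which were called on those same values. The same held for 518 of all 570 called genes, so it adds nothing to the calls. The activators of the loop rose and the REV-ERB receptors, the DBP family and 2 of 3 accessory repressors fell. Rorb was not measured.

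Among the activators, Arntl was at 25.9, 24.8, 27.2 and 22.1 CPM at ZT8 and at 62.9, 56.3, 49.7 and 73.9 CPM at ZT20. Each ZT20 library was above each ZT8 library, and the fold change was 2.43 (log2 1.28 ± 0.12 SE, edgeR adjusted p = 2.81e-09). Npas2, the paralogue of Clock, was at 5.19, 8.02, 6.42 and 8.52 CPM at ZT8 and at 17.8, 16.6, 12.9 and 30.6 CPM at ZT20. Its log2 fold change was 1.47 ± 0.20 (SE), and ZT20 replicate 4 was the highest. Clock moved less, from 71.0 to 82.5 CPM at ZT8 to between 87.5 and 95.3 CPM at ZT20 (log2 0.25 ± 0.07 SE, edgeR adjusted p = 0.0402). That call held in 1 of the 8 fits that left out a library.

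Both REV-ERB receptors of the second loop fell. Nr1d1, which encodes REV-ERB alpha, was at 255, 211, 265 and 248 CPM at ZT8 and at 22.3, 35.1, 26.9 and 20.9 CPM at ZT20. It was 9.29-fold lower (log2 -3.22 ± 0.26 SE, edgeR adjusted p = 3.92e-11), and its groups stood far apart. Nr1d2, which encodes REV-ERB beta, was at 195, 191, 191 and 204 CPM at ZT8 and at 47.7, 74.1, 68.4 and 46.6 CPM at ZT20 (log2 -1.72 ± 0.15 SE). Rora, which encodes a ROR activator, overlapped between the times and was not called (log2 0.07 ± 0.09 SE, edgeR adjusted p = 0.804). Nr1d1 overlaps Thra on chromosome 11. The strand setting of the counting is not given in the sources used here, so reads of such overlapping genes may not have been told apart. The same holds for Cry2, Ciart, Pgm5, Ccdc116, Pdia6, Gins2, Pfkp, Ccnd1, Ccnd2, Dst and Crim1, each of which overlaps another tested gene.

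Among the repressors, Cry1 rose and Cry2 and Per3 fell. Cry1 was at 12.1, 11.5, 11.2 and 8.93 CPM at ZT8 and at 47.3, 43.8, 44.6 and 43.8 CPM at ZT20. The 4 ZT20 libraries lay close together, and the 4.11-fold rise was the largest among named genes that rose (log2 2.04 ± 0.16 SE, edgeR adjusted p = 1.71e-11). Per3 was at 125, 118, 125 and 118 CPM at ZT8 and at 43.0, 67.8, 57.6 and 38.1 CPM at ZT20 (log2 -1.23 ± 0.28 SE, edgeR adjusted p = 0.0068). Cry2 fell from between 98.0 and 106 CPM to between 59.6 and 75.7 CPM (log2 -0.55 ± 0.11 SE). Per1 was at 209, 170.4, 213 and 172 CPM at ZT8 and at 110.3, 117, 109 and 175 CPM at ZT20. Only replicate 4 at ZT20 reached into the ZT8 range, and Per1 was not called (log2 -0.58 ± 0.32 SE, edgeR adjusted p = 0.386). Per2 overlapped between the times and was not called either (log2 -0.26 ± 0.30 SE).

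Of the factors that bind D-boxes, Dbp was at 146, 133, 136 and 151 CPM at ZT8 and at 12.3, 20.2, 19.7 and 9.16 CPM at ZT20. It was 9.20-fold lower (log2 -3.20 ± 0.29 SE, edgeR adjusted p = 6.53e-10). Tef fell by 0.93 ± 0.15 and Hlf by 0.53 ± 0.11 on the log2 scale (SE), both with no overlap between the times. Their competitor Nfil3 went the other way, from 5.72, 7.67, 5.40 and 7.01 CPM at ZT8 to 23.2, 13.2, 17.2 and 19.03 CPM at ZT20 (log2 1.49 ± 0.26 SE, edgeR adjusted p = 0.000552). Dbp overlaps Sphk2 on chromosome 7.

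Among the 3 accessory repressors of the clock, 2 fell. Ciart, whose window holds 3 E-boxes, was at 14.3, 12.5, 12.0 and 13.9 CPM at ZT8 and at 3.79, 3.27, 4.08 and 3.11 CPM at ZT20 (log2 -1.89 ± 0.24 SE, edgeR adjusted p = 2.69e-06). Bhlhe41, which encodes DEC2, was at 3.65 to 4.63 CPM and fell to between 0.711 and 1.56 CPM (log2 -1.76 ± 0.30 SE). Bhlhe40, which encodes DEC1, ranged from 107 to 199.7 CPM at ZT8 alone and was not called (log2 -0.38 ± 0.32 SE).

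**Figure D2:**
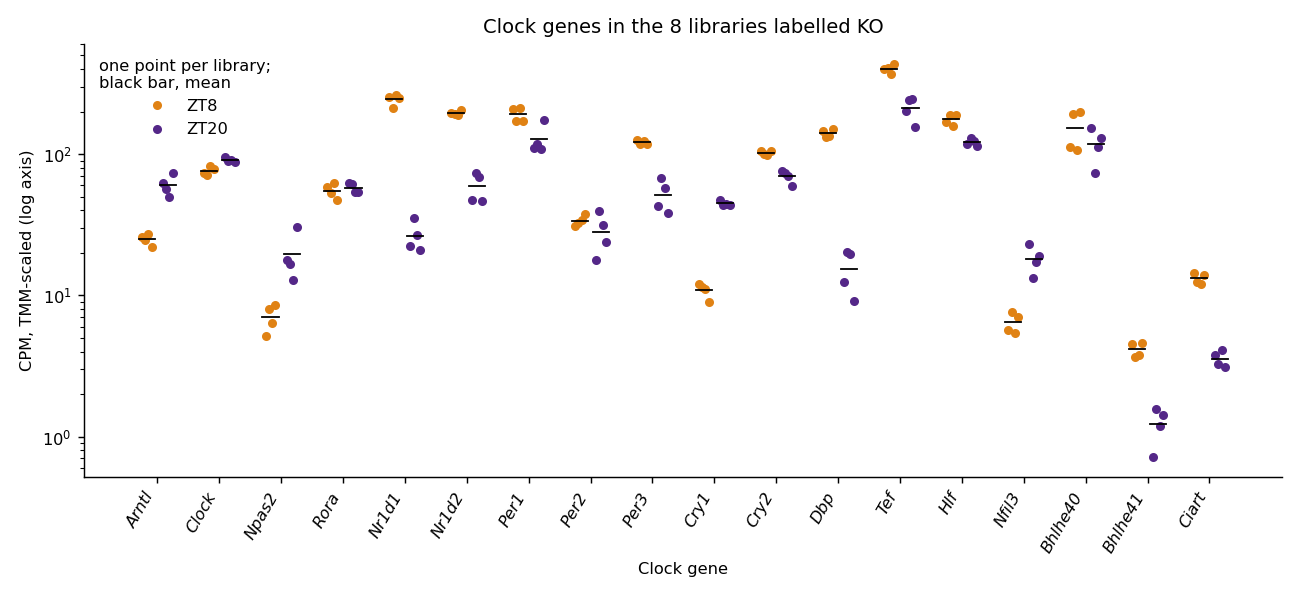
CPM (log axis) of 18 clock genes in the 8 libraries labelled KO, with 1 point per library, orange at ZT8 and purple at ZT20, and a black bar at the mean of 4. The 2 colours separate for 14 genes and overlap for Rora, Per1, Per2 and Bhlhe40.

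Of 15 genes known as clock outputs, 1 rose and 2 fell, against 1.85% of all genes called higher and 1.49% called lower, with a list median of -0.21. Lonrf3, a ring finger protein, was at 12.9, 14.6, 11.3 and 12.9 CPM at ZT8 and at 24.6, 23.4, 22.0 and 26.0 CPM at ZT20 (log2 0.89 ± 0.12 SE, edgeR adjusted p = 3.42e-06). Klf9, a transcription factor known to restrain keratinocyte proliferation in human cells, fell by 0.62 ± 0.18 on the log2 scale (SE, edgeR adjusted p = 0.0479). Its call was lost whichever library was left out. Gpcpd1, a phosphodiesterase, fell by 0.40 ± 0.11 on the log2 scale (SE), with an overlap between the times and a call that held in 3 of the 8 such fits.

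Outside the clock, the largest rises among genes at 1 CPM or more, with predicted and sex-linked genes set aside, included Tppp3, A4galt, Nptxr, Ttc9, P4ha2, Mthfd2 and Fam124b. Tppp3, which encodes a tubulin-binding protein, was at 27.0, 36.9, 38.0 and 33.0 CPM at ZT8 and at 41.1, 87.8, 80.05 and 172 CPM at ZT20. The ZT20 libraries spread widely, and the call (2.82-fold higher, log2 SE 0.43, edgeR adjusted p = 0.0422) held in 1 of the 8 fits that left out a library. Ttc9 was tighter, at 17.1 to 24.8 CPM against 36.02 to 50.4 CPM (log2 1.06 ± 0.18 SE, edgeR adjusted p = 0.000245). P4ha2, a subunit of the prolyl hydroxylase that modifies collagen, rose from between 4.37 and 7.75 CPM to between 10.2 and 15.4 CPM (log2 1.04 ± 0.23 SE). Mthfd2, a mitochondrial enzyme of folate metabolism, rose by 0.94 ± 0.18 and A4galt, a glycolipid galactosyltransferase, by 1.21 ± 0.27 on the log2 scale (SE). Nptxr overlaps Npcd on chromosome 15, so its rise (log2 1.10 ± 0.20 SE) may include reads of that gene. Fam124b rose by 0.93 ± 0.25 on the log2 scale (SE), and its call held in 3 of the 8 fits that left out a library.

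Among genes at 1 CPM or more, with predicted and sex-linked genes set aside, the largest falls outside the clock were in Pgm5, Nmnat2, Tmem266, Ptprr, Arsi, Ccdc116 and Rsad1. Pgm5, a phosphoglucomutase-like protein of cell adhesions, was at 2.71, 2.21, 7.64 and 6.96 CPM at ZT8 and at 1.04, 1.44, 1.48 and 0.740 CPM at ZT20 (log2 -2.05 ± 0.42 SE, edgeR adjusted p = 0.00269). The ZT8 libraries split into a lower and a higher pair. Nmnat2, an enzyme of NAD synthesis, fell from between 2.38 and 3.21 CPM to between 0.693 and 0.864 CPM (log2 -1.84 ± 0.27 SE, edgeR adjusted p = 2.23e-05). Rsad1 was at 20.9, 17.5, 21.9 and 20.8 CPM at ZT8 and at 7.55, 9.39, 8.95 and 8.39 CPM at ZT20 (log2 -1.24 ± 0.15 SE, edgeR adjusted p = 5.23e-07). Tmem266, Ptprr, Arsi and Ccdc116 fell by 1.26 to 1.55 on the log2 scale. Of these 4, Ptprr overlapped between the times, and its call held in 4 of the 8 fits that left out a library. The Arsi call was lost without ZT20 replicate 1.

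Several chaperones of the endoplasmic reticulum rose at ZT20. Of 20 genes of the unfolded protein response, 9 rose and none fell, against 1.85% of all genes called higher, and the list median was 0.27 with 17 of 20 above 0. Under the WT label the list's median was smaller, at 0.12 with 16 of 20 above 0 and 2 called. A 24 h cosine through the other 4 times under the KO label, read as ZT20 minus ZT8, gave a median of 0.074. Hyou1, a large chaperone of the HSP70 type, was at 59.6, 55.6, 66.3 and 56.8 CPM at ZT8 and at 91.4, 83.0, 97.6 and 105 CPM at ZT20 (log2 0.66 ± 0.11 SE, edgeR adjusted p = 0.00016). Creld2 was at 11.2 to 14.7 CPM against 17.4 to 24.7 CPM (log2 0.59 ± 0.11 SE). The other 7 were the disulphide isomerases Pdia4 and Pdia6, the lectin chaperone Calr, the co-chaperones Dnajb11, Dnajc3 and Sdf2l1, and the secreted factor Manf, with log2 fold changes of 0.27 to 0.61. For Pdia6 the call was lost without ZT20 replicate 4, the highest at 174 CPM. The transcription factors Atf4, Ddit3, Atf3 and Xbp1 had log2 fold changes of -0.10 to 0.12, none called. Hspa5, which encodes BiP, was at 249 CPM on average at ZT8 and 329 CPM at ZT20, a log2 fold change of 0.40 ± 0.14 (SE) that did not pass (edgeR adjusted p = 0.122).

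The ER stress element, CCAAT and CCACG with 9 bases between them, is shown for the 4 called members that hold it, on either strand and with the pair of motifs in capitals. These stretches are parts of the same RefSeq windows.

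Calr, chr8:84847045-84847123, minus strand: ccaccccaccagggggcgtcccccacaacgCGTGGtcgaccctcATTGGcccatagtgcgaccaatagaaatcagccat

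Pdia6, chr12:17266461-17266539, plus strand: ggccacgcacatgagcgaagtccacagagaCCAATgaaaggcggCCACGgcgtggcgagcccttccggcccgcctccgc

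Dnajc3, chr14:118937797-118937875, plus strand: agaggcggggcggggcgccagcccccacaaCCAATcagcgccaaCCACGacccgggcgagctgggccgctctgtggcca

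Creld2, chr15:88819490-88819568, plus strand: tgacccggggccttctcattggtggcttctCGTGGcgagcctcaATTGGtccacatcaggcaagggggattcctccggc

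The element was found in 7 of the 18 list members with a window, in 0.119% of all windows and in 0.171% of tested genes with a window. The other 3 of the 7 were Hspa5, Hsp90b1 and Canx, which were not called.

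Of 20 heat shock genes, 3 rose and none fell, against 1.85% of all genes called higher, with a median of 0.20. Hsph1, the HSP110 chaperone, was at 38.2, 36.8, 49.8 and 35.8 CPM at ZT8 and at 73.2, 65.7, 79.7 and 76.0 CPM at ZT20 (log2 0.88 ± 0.12 SE, edgeR adjusted p = 6.48e-06). The HSP90 co-chaperones Stip1 and Ahsa1 rose by 0.41 ± 0.07 and 0.37 ± 0.06 on the log2 scale (SE). Cirbp, an RNA-binding protein induced by mild cold, fell from 104, 102, 80.8 and 106 CPM to 65.5, 65.2, 61.5 and 62.8 CPM (log2 -0.62 ± 0.13 SE, edgeR adjusted p = 0.00248). No library of one time entered the range of the other for Hsph1 or Cirbp.

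Of 27 genes of G2 and mitosis, 3 rose, against 1.85% of all genes called higher, with a median of 0.16. Top2a, the topoisomerase that untangles replicated DNA, was at 61.8, 84.4, 63.0 and 75.7 CPM at ZT8 and at 96.3, 88.2, 90.4 and 124 CPM at ZT20 (log2 0.48 ± 0.11 SE, edgeR adjusted p = 0.00855). The spindle motor Kif11 and the checkpoint kinase Bub1 rose by 0.50 ± 0.12 and 0.54 ± 0.14 on the log2 scale (SE). All 3 calls were lost without ZT20 replicate 4, the highest library for each, and without ZT8 replicate 1, and that of Bub1 also without ZT8 replicate 3. Of 27 genes of S phase, 1 rose and 3 fell, against 1.85% of all genes called higher and 1.49% called lower, with a median of -0.13. Gins2, a part of the replicative helicase, was at 13.7, 12.9, 11.3 and 15.5 CPM at ZT8 and at 8.13, 8.02, 10.5 and 8.51 CPM at ZT20 (log2 -0.61 ± 0.10 SE, edgeR adjusted p = 0.000104). The helicase subunits Mcm4 and Mcm2 fell by 0.30 ± 0.07 and 0.41 ± 0.11 on the log2 scale (SE), and Rrm2, a ribonucleotide reductase subunit, rose by 0.45 ± 0.12. The Mcm2 and Rrm2 calls each held in 2 of the 8 fits that left out a library, and the Mcm4 call was lost without ZT8 replicate 2 or ZT20 replicate 1. Both D-type cyclins on the lists, which drive entry into the cycle, fell. Ccnd2 was at 548, 565, 627 and 636 CPM at ZT8 and at 265, 299.7, 278 and 271 CPM at ZT20, 2.13-fold lower (log2 -1.09 ± 0.11 SE, edgeR adjusted p = 1.11e-08). Ccnd1 fell by 0.50 ± 0.14 on the log2 scale (SE, edgeR adjusted p = 0.0327), a call that held in 3 of the 8 fits that left out a library.

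Of 19 basal keratinocyte genes, 3 fell, against 1.49% of all genes called lower, with a list median of -0.09. These were Ccnd1, Ccnd2 and Dst. Dst, which encodes the hemidesmosome linker BPAG1, was at 893, 855, 1065 and 1158 CPM at ZT8 and at 627, 791, 672 and 684 CPM at ZT20 (log2 -0.52 ± 0.12 SE, edgeR adjusted p = 0.00936). The desmosomal cadherin Dsg2 fell by 0.36 ± 0.09 on the log2 scale (SE), so that 2 of 20 desmosome and hemidesmosome genes fell, against the same 1.49%. Both calls were lost without ZT8 replicate 4 or ZT20 replicate 1, and that of Dsg2 also without ZT20 replicate 3. Of 30 spinous and granular genes, 1 rose, against 1.85% of all genes called higher. This was Ivl, the cornified envelope precursor involucrin, at 87.7, 77.3, 79.1 and 55.2 CPM at ZT8 and at 119, 110.5, 121 and 102 CPM at ZT20 (log2 0.60 ± 0.17 SE, edgeR adjusted p = 0.0474). Its call was lost whichever library was left out.

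Of 32 interferon response genes, 3 fell and none rose, against 1.49% of all genes called lower, and 29 were below 0 with a median of -0.43. Ifi27l2a was at 4.67, 5.02, 3.57 and 4.84 CPM at ZT8 and at 2.36, 1.78, 2.05 and 2.25 CPM at ZT20 (log2 -1.10 ± 0.24 SE, edgeR adjusted p = 0.00426). The RNA sensors Ifih1 (MDA5) and Ddx58 (RIG-I) fell by 0.36 ± 0.08 and 0.33 ± 0.10 on the log2 scale (SE). The Ddx58 call held in 1 of the 8 fits that left out a library. Ifi27l2a overlaps Ifi27 on chromosome 12. All 10 Langerhans and dendritic cell markers and 11 of 12 T cell markers had log2 fold changes below 0, none called, and summed 323 to 553 CPM against 292 to 468 CPM and 90.2 to 171 CPM against 82.6 to 134 CPM. Of 10 macrophage and monocyte markers, 5 were below 0. Under the WT label the interferon list also had a median below 0, at -0.27 with 7 of 32 above 0, while 10 of 10 Langerhans and dendritic cell markers and 9 of 12 T cell markers were above 0. The part of these cell types in the result was not tested. In bulk samples, fewer cells of a type and less RNA per cell cannot be told apart.

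Of 17 glycolysis genes, 16 were above 0 with a median of 0.38, and 1 was called, against 1.85% of all genes called higher. Pfkp, the platelet phosphofructokinase, was at 157, 205, 182 and 203 CPM at ZT8 and at 257, 225, 274 and 314 CPM at ZT20 (log2 0.52 ± 0.13 SE, edgeR adjusted p = 0.0159), a call lost without ZT8 replicate 1, ZT20 replicate 3 or ZT20 replicate 4. In libraries labelled WT the list's median was -0.16, with 3 of 17 above 0. There Xist was high in 2 libraries at ZT8 and in all 4 at ZT20, against 2 and 1 under the KO label. With terms for Xist and Y-linked expression in the model, 8 of the 17 were called higher. That fit called 457 of all 17068 tested genes higher, against 315 in the main fit.

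**Figure D3:**
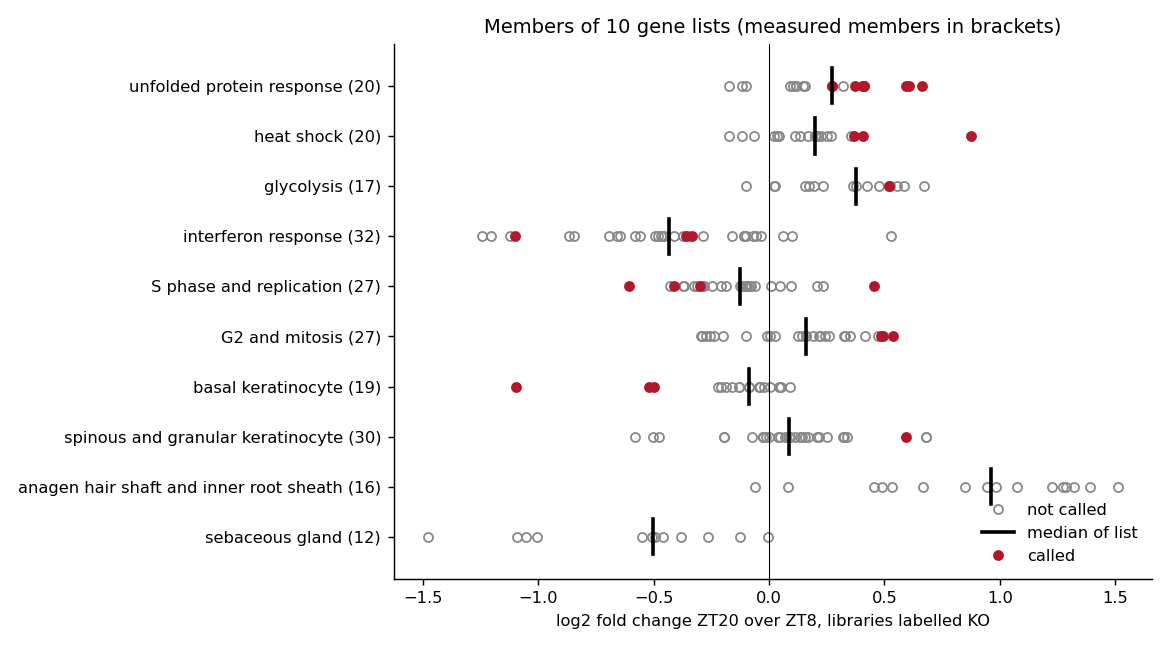
Log2 fold change of ZT20 over ZT8 in libraries labelled KO for each measured member of 10 gene lists, with called genes filled, others open and a black bar at the list's median. Called members of the unfolded protein response all lie above 0 and those of the interferon response below 0, while the hair and sebaceous lists are far from 0 with no called member.

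Smaller counts were found elsewhere. Of 24 antioxidant and 27 oxidative phosphorylation genes, 1 each was called higher, against 1.85% of all genes. These were the mitochondrial superoxide dismutase Sod2 and the cytochrome subunit Cyc1, which rose by 0.23 ± 0.07 and 0.21 ± 0.06 on the log2 scale (SE). Of 16 nucleotide excision repair genes and 21 YAP/TAZ targets, 1 each was called lower, against 1.49% of all genes. These were Xpc and Crim1, which fell by 0.31 ± 0.09 and 0.34 ± 0.09. Of the 8 fits that left out a library, the call held in 4 for Sod2, 1 for Cyc1, 2 for Xpc and 2 for Crim1. No gene was called among the glucocorticoid-induced, immediate early, cholesterol, fatty acid, ceramide, stress keratinocyte, inflammation, p53 or autophagy lists. Among their most abundant members, Fos was at 3773, 6353, 3875 and 5994 CPM at ZT8 and at 6114, 3702, 5209 and 6085 CPM at ZT20. Its values overlapped fully, and the 3 libraries with Xist were the lowest. Dusp1, Cdkn1a, Hmgcs1, Fasn, Abca12, Krt6a, Nfkbia and Ctsd had log2 fold changes of -0.32 to 0.28, none called.

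Markers of other cell types were called in 1 case. Mbp of the Schwann cell list fell from between 105 and 120.3 CPM to between 76.7 and 90.7 CPM (log2 -0.41 ± 0.09 SE, edgeR adjusted p = 0.00426). It was 1 of 8 genes on that list, against 1.49% of all genes called lower. Uncalled lists could still lie far from 0. The anagen hair list had a median of 0.96 with 15 of 16 members above 0, and summed 35.4 to 113 CPM at ZT8 and 89.0 to 141 CPM at ZT20. The sebaceous list had a median of -0.50 with 0 of 12 above 0, and summed 1113 to 1613 CPM at ZT8 and 1022 to 1557 CPM at ZT20. No member of either list had even an unadjusted edgeR p under 0.05. Over all tested genes, 8377 of 17068 were above 0. Under the WT label the sebaceous list went the other way, with a median of 0.90 and 10 of 12 above 0. The hair list's median there was 0.71, with 15 of 16 above 0. With hair and fibroblast make-up as terms in the model, 690 genes were called, and 537 of the 570 were still among them.

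The same 2 times were then compared in libraries labelled WT, which share no library with those labelled KO. Xist was high in 2 of the WT-labelled libraries at ZT8 and in all 4 at ZT20, so that time and Xist were partly confounded. Under the WT label 529 genes were called (3.1% of all tested). Of the 570 genes called in libraries labelled KO, 548 had the same sign in those labelled WT, against 60.7% of all tested genes. Both labels called 169 genes, which is 29.6% of the KO list and 31.9% of the WT list, all with the same sign. The genes were chosen on the KO-labelled libraries, and 484 of the 570 had a smaller change under the WT label. Of the 19 clock genes, 13 were called under both labels. Arntl, Cry1, Nr1d1 and Dbp had log2 fold changes of 1.14, 1.97, -3.02 and -2.96 under the WT label.

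**Figure D4:**
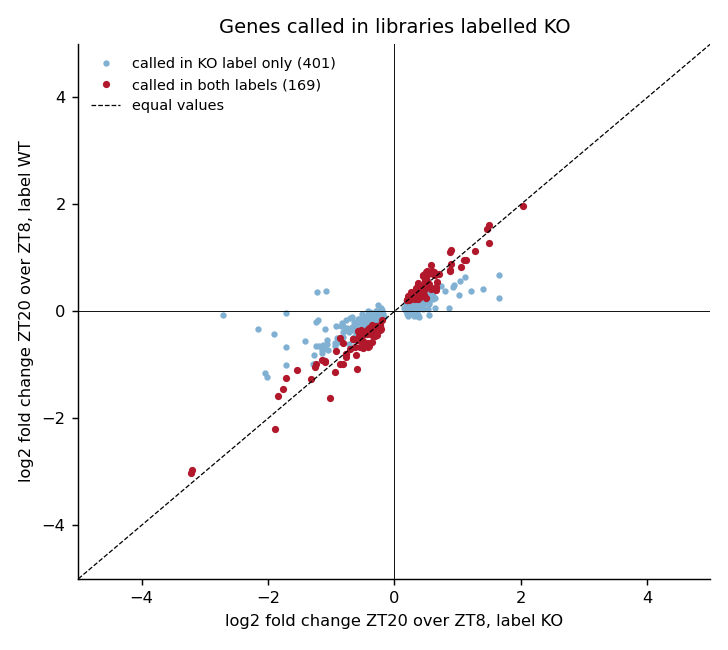
Log2 fold change of ZT20 over ZT8 in libraries labelled KO against that in libraries labelled WT for the 570 genes called under the KO label, with the 169 called under both in red and a dashed line at equal values. Most points (548) lie in the quadrants of equal sign.

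The difference between the 2 labels' changes was tested directly. No gene passed (0.0% of 17068), with DESeq2 and limma-voom also at 0, and 1136 genes had an unadjusted edgeR p under 0.05. The smallest p belonged to Adamts5, Sectm1b, Dcaf10, Ccdc12 and a gene with no symbol, all at an edgeR adjusted p of 0.741. Adamts5, a protease of proteoglycans, was at 1.49, 1.12, 1.71 and 1.36 CPM at ZT8 and at 0.737, 0.842, 0.544 and 0.543 CPM at ZT20 under the KO label. Its difference between labels was -1.48 on the log2 scale (95% interval -2.12 to -0.83, not adjusted for the number of genes). Sectm1b, a secreted and transmembrane protein, fell under the KO label from between 22.0 and 26.3 CPM to between 8.29 and 13.3 CPM, with a difference of -0.78 (interval -1.14 to -0.41). Per3 and Hlf were called under the KO label and not under the WT label, but their differences of -0.58 and -0.40 did not pass either.

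The other 4 times in libraries labelled KO place these changes in the day. A cosine with a period of 24 h through those 16 libraries, read as ZT20 minus ZT8, called 10 genes (0.0586% of all tested), all among the 570, and 6 of them were clock genes. Of the 570 genes, 526 had the same sign there, against 64.2% of all tested genes. Of the 315 genes higher at ZT20, 138 had their highest mean log2 CPM among those other times at ZT0 and 119 at ZT16. Of the 255 lower genes, 119 were highest at ZT12 and 104 at ZT4. The same shares over all tested genes were not counted. Arntl peaked later than ZT20, with 72.4 ± 7.0 CPM at ZT0 (SD, n = 4), and Per3 later than ZT8, with 201 ± 26 CPM at ZT12. Nr1d1 was at its highest mean at ZT8 and its lowest at ZT20, so the pair of times spans its whole range.

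**Figure D5:**
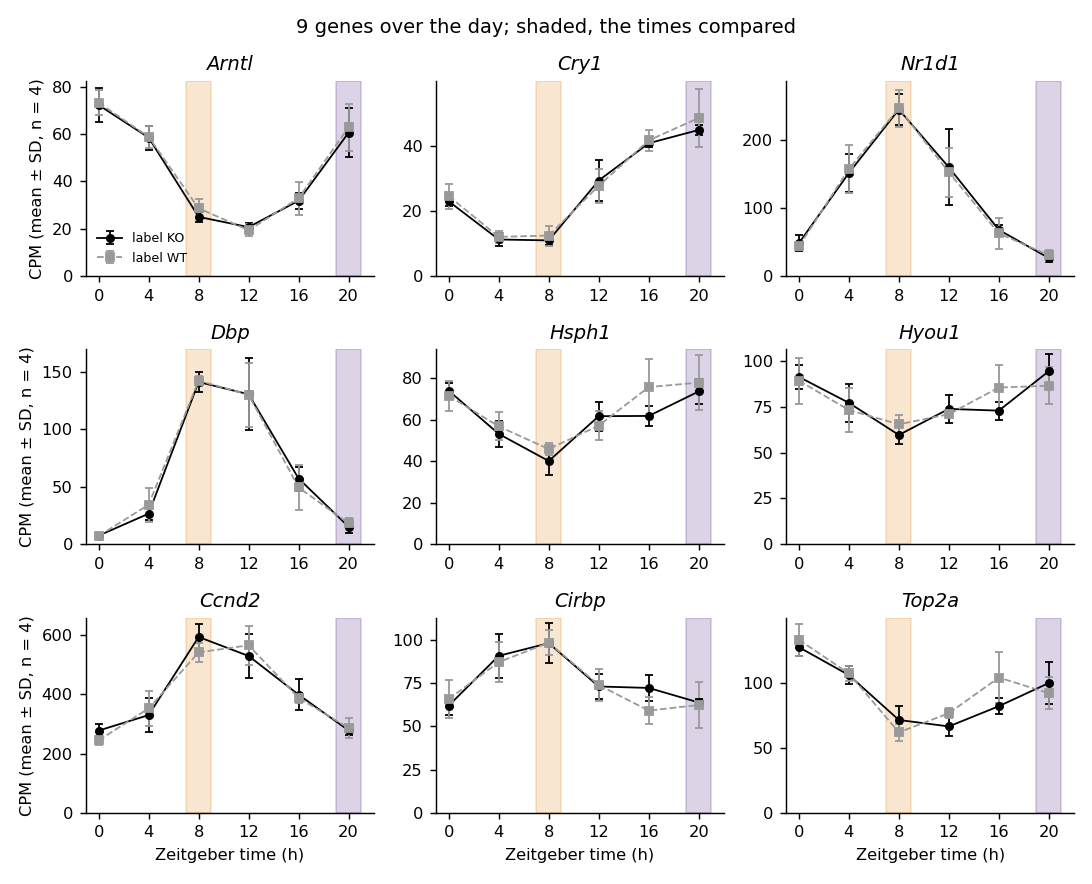
Mean CPM ± SD of 4 libraries at each of 6 Zeitgeber times for 9 genes, in libraries labelled KO (black, solid) and WT (grey, dashed), with the 2 times compared shaded. Nr1d1, Dbp, Ccnd2 and Cirbp are high at ZT8 and low at ZT20, and Arntl, Cry1, Hsph1, Hyou1 and Top2a the reverse.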

How the data were processed

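Epidermal cell suspensions gave 48 poly(A) libraries, made with a stranded kit per the labels' protocols. The authors deposited raw counts per Entrez gene ID, whole numbers with no normalisation. Trim Galore, STAR 2.7.10a, featureCounts and GRCm38 (mm10) are named in the submitters' processing notes; for the annotation and the strand setting, nothing is stated in the sources used. Symbols were matched by ID for 25275 IDs through RefSeq and 18 through GENCODE, and 1886 stayed unnamed, with 4.65% of counts.

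Counts were scaled by TMM and filtered with filterByExpr in edgeR 4.0.16. A model of 12 group means over all 48 libraries, which share 1 estimate of spread, was fitted with glmQLFit (robust) and tested with glmQLFTest; p-values were adjusted by Benjamini-Hochberg over all 17068 genes and called under 0.05. Fitting was tested on simulated data. Levels are CPM. Replicates are labelled biological; no pair was identical within sampling noise. Replicate numbers shared between the times did not pair the libraries.

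Members and the 46 lists were chosen with earlier results of these data known. Named were all clock genes, the 12 largest called changes each way at 1 CPM or more (predicted and sex-linked genes aside), up to 4 called members per list or otherwise up to 2 abundant ones, and the 5 smallest p for the difference between labels. Of these, 2 genes are not reported here. Other genes named were chosen after their values were seen. DESeq2 1.42.0 and limma-voom (limma 3.58.1) were alternatives.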

Additional observations from a re-analysis of the deposited data

Results flagged for a closer look

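Single libraries stood apart from the other 3 of their group in 15 of 240 gene and time groups tested, and chance alone flags about 1 in 20. Among clock genes, this was Per1 at ZT20, where replicate 4 was at 174.8 CPM and the others at 108.6 to 117.3 CPM. Replicate 4 at ZT20 also stood above the others for the mitotic genes Kif11 (30.75 CPM) and Bub1 (9.007 CPM). Replicate 2 at ZT20, the library with Xist, was below the others for the chaperone genes Stip1 (111.7 CPM) and Dnajb11 (53 CPM), above them for Ifih1 (35.66 CPM), and at 0.02477 CPM for the Y-linked Ddx3y. Replicate 3 at ZT20 was low for Mmp9 (5.071 CPM). At ZT8, replicate 3 was low for Cirbp (80.8 CPM) and Ccl27a (183.1 CPM), and replicate 4 for Csf1r (7.113 CPM) and Pmel (11.62 CPM). Replicate 2 was low there for Ccdc116 (2.012 CPM), and replicate 1 was high for Xpc (54.43 CPM) and low for a gene with no symbol (19.63 CPM).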

How the results depend on the processing

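The count of 570 called genes stayed within 1.5 times (408 to 839) under RLE size factors, both filters, DESeq2, limma-voom, terms for sex-linked expression or make-up, and fits to 8 or 24 libraries. A similar count did not mean the same genes. Of the 570, 309 were still called in the fit to 8 libraries and 437 without a low-count filter. A replicate block gave 582 calls in the fit to all libraries and 61 in the fit to the 8 libraries. The shared numbers did not pair the libraries (correlations of same-numbered deviations from -0.636 to 0.261). Leaving out 1 library gave 278 to 628. A split by Xist, added after the data were seen, fitted all libraries of the series with Xist, of both labels and all times, or all those without. With Xist, the comparison rested on 3 libraries labelled KO, 1 of them at ZT20, and 6 genes were called. A single library shows no spread of its own, so no conclusion is drawn from that count. Without Xist, the comparison rested on 5 libraries labelled KO, and 576 genes were called. Only 363 of the 570 were among them. The difference between labels called 0 genes in every fit run, and the counts under the WT label stayed within 1.5 times of 529. Of 65 called genes named by the rule, 40 were called in all 8 fits that left out a library.

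No called gene named by the rule changed sign under any alternative. Values that were not called crossed 0 as follows, on the log2 scale. Among libraries with Xist these were Per2 (0.28), Fos (-0.054), Scd1 (0.090), Abca12 (-0.074), Postn (0.15), Krt15 (-0.034), Krt79 (0.16), Fabp5 (0.034), Thy1 (-0.11), Kit (0.39), Ddx3y (-1.25) and Ccdc12 (-0.033). Among libraries without Xist these were Dusp1 (-0.039), Fos (-0.091), Elovl4 (0.093), Krt6a (-0.051), Sparc (-0.025), Fabp5 (0.010), Trdc (0.35), Acta1 (-0.12), Mylpf (-0.19), Xist (2.48) and Ddx3y (-0.14). With sex-linked terms these were Dusp1 (-0.023), Fos (-0.071), Scd1 (0.0070), Krt6a (-0.033), Acta1 (-0.032), Xist (0.40) and Ddx3y (-0.0027). With make-up terms these were Fosb (0.16), Tchh (-0.060), Krt25 (-0.078), COX1 (0.031) and Col14a1 (-0.022). With the replicate block these were Fosb (0.012) and Xist (2.51), and with the stricter filter Krt6a (-0.0017) and Acta1 (-0.0075). Acta1 was also at -0.0025 with RLE size factors and with DESeq2, -0.00029 without a filter, -0.0030 with limma-voom, -0.00087 with 8 libraries, -0.0013 with 24 and -0.0040 with 8 and the replicate block. Leaving out 1 library gave ranges of -0.0038 to 0.13 for Rora, -0.035 to 0.22 for Fos, -0.19 to 0.11 for Fosb, -0.067 to 0.028 for Elovl4, -0.00012 to 0.16 for Abca12, -0.046 to 0.086 for Krt6a, -0.038 to 0.18 for Ccl27a, -0.017 to 0.16 for Sparc, -0.043 to 0.034 for Fabp5, -0.059 to 0.31 for Thy1, -0.35 to 0.029 for Trdc, -0.18 to 1.11 for Cxcr2, -0.39 to 0.061 for Kit, -0.080 to 0.098 for Acta1, -0.052 to 0.16 for Mylpf and -0.18 to 0.081 for COX1. The cause was not tested.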

Other observations

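Within the 8 libraries labelled KO, some abundant genes that did not differ between the times followed the presence of Xist. Fos, a subunit of the AP-1 factor, was at 3702 to 3875 CPM in the 3 libraries with Xist and at 5209 to 6353 CPM in the 5 without. The mitochondrially encoded COX1 was at 7861 to 9791 CPM in the former and at 10906 to 13874 CPM in the latter. These are values of 8 libraries, chosen after they were seen, and the difference was not tested.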
